A study of Mus musculus with 6 samples.

Results

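The 61 genes described here encode heat shock proteins and DnaJ co-chaperones of the mouse, and were read by 124 of the 22690 probe sets on the array. They were chosen by symbol: every probe set that the platform annotation gives to 1 gene alone and whose gene is an HSP70 or HSP110 (Hspa, Hsph), an HSP90 (Hsp90), a small heat shock protein (Hspb with a number, or Cryab), a mitochondrial chaperonin subunit (Hspd1, Hspe1) or a J protein (Dnaj). The transcription factor gene Hsf1 and the HSP90 gene Hsp90ab1 were also sought by that choice and were not analysed here. RNA came from a pair of immortalised hypothalamic cell lines, A_212 from adult mice and N_46 from embryos. Both were made by overexpressing the SV40 T-antigen, both are labelled as expressing Npy (neuropeptide Y), and both were grown to 70% confluence in DMEM with 5% FBS. Each line was grown on 3 plates, 1 array per plate, with no treatment in either group. Each age is represented by a single line, so the p-values rest on plate-to-plate spread within a line, and age cannot be told apart from whatever else sets the lines apart.

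Heat shock proteins bind unfolded proteins and keep them from aggregating. HSP70 does so in cycles of ATP hydrolysis that J proteins start and that nucleotide exchange factors, HSP110 among them, end, and HSP90 takes many clients over from HSP70. The small heat shock proteins hold unfolded proteins without ATP. The endoplasmic reticulum (ER) and mitochondria have their own HSP70, HSP90 or chaperonin and their own J proteins, and the cytosolic inducible members are transcribed by HSF1 after heat and other protein stress.

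All values are deposited log2 values that were centred, so that the median over the 6 arrays is 0 for each probe set. They hold differences between arrays and no level, so whether a gene was expressed in a line cannot be read from them, and values of different genes were not compared as levels. Where the lines do not overlap, the centring makes the lowest array of one line and the highest of the other equal in size and opposite in sign in a single probe set. The log base was taken as 2 because RMA gives base 2. A gene's value is the mean of its probe sets, and each difference is A_212 minus N_46, written ± its standard error from limma (n = 3 arrays in each line), so a positive difference is higher in A_212. The number of arrays limits the precision.

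Of the 61 genes, 13 were higher in A_212, 16 were lower and 32 did not pass (limma, adjusted p under 0.05 over 12393 genes). That is 47.5% called, beside 39.2% of all genes tested (18.3% higher and 20.9% lower in A_212), so the share of chaperone genes that differed was near that of the whole array. The median difference was -0.08 over the 61 genes and -0.06 over all genes. The A_212 and N_46 arrays lay apart for 31 of the 61, beside 51.1% of all genes: A_212 was above for 14 (22.2% of all genes) and below for 17 (28.9%). Differences of at least 1 on the log2 scale were found for 7 of them, 6 higher and 1 lower in A_212, against 5.83% of all genes (3.61% higher in A_212). The 6 were the small heat shock protein genes Hspb1, Cryab and Hspb2 and the HSP70 genes Hspa12b, Hspa1b and Hspa1a, and the 1 was the J protein gene Dnajc12. The calls higher in A_212 numbered 12 to 14 when 1 array was left out, whereas the 16 lower calls numbered 8 without N_46 replicate 2 and 9 without N_46 replicate 3. Calls over all genes fell in those fits too. Without N_46 replicate 2 the 2586 lower calls numbered 2017 and the 2267 higher calls 1924. Without N_46 replicate 3 they numbered 1986 and 1917.

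**Figure D1:**
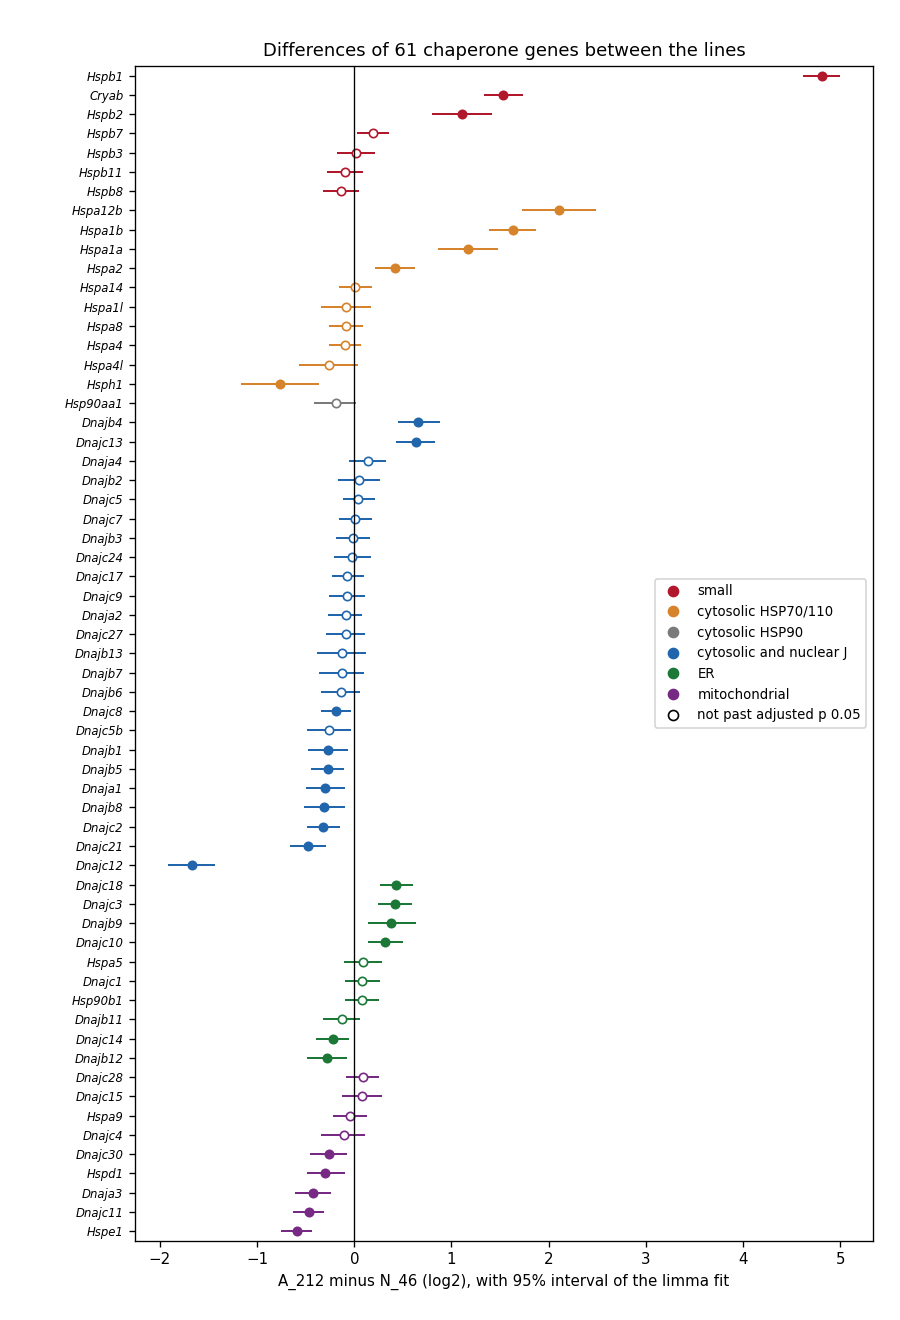
Difference between the lines (A_212 minus N_46, log2) for each of the 61 genes, with the 95% interval of the limma fit, grouped and coloured by cellular compartment. Filled points passed an adjusted p of 0.05 and open points did not. Hspb1 stands at 4.81, the small and HSP70 groups hold 6 genes above 1, and Dnajc12 stands at -1.67.

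Arrays of A_212 correlated with r between 0.801 and 0.856 over all genes, which are not independent replicates, and arrays of N_46 with r between 0.825 and 0.924. The gap between 3' and 5' control probe sets, which tracks RNA integrity, had an A_212 minus N_46 value of 0.001 for Gapdh and -0.012 for Actb (log2). By array, N_46 replicate 1 had the highest centred gap in both, at 0.0563 for Gapdh and 0.0746 for Actb. N_46 replicates 2 and 3 had -0.0233 and -0.0335 for Gapdh, and -0.0356 and -0.0186 for Actb. Among markers of cell types, 10 of 13 smooth muscle markers were higher in A_212 and 0 lower, and 8 of 16 fibroblast markers were higher and 2 lower. Of 15 neuron markers 3 were higher and 2 lower, and of 12 astrocyte markers 5 were higher and 2 lower. Since the values are centred, none of these markers shows whether a line holds the cell type.

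Of the 7 small heat shock protein genes 3 were higher in A_212, 0 were lower and 4 did not pass. The share called was 42.9%, beside 39.2% of all genes (18.3% higher and 20.9% lower). Hspb1 had the largest difference of all 61 genes. Hspb1, which encodes HSP27 (HSP25 in the mouse), a chaperone that also binds actin filaments, had centred log2 values of 2.37, 2.40 and 2.39 in the A_212 arrays, against -2.56, -2.43 and -2.30 in the N_46 arrays. The lines lay far apart and the A_212 arrays were closely alike. The difference was 4.81 ± 0.08, a 28.1-fold difference (adjusted p = 9.6e-11). Its probe sets differed in size, at 4.41 and 5.21, and neither is of the plain type that matches a single transcript.

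Cryab encodes αB-crystallin, the small heat shock protein of lens, muscle and glia. Its gene mean was 0.62, 0.87 and 0.84 in A_212, against -0.66, -0.78 and -0.80 in N_46, with a difference of 1.53 ± 0.09 (adjusted p = 2.7e-07). That mean joins 3 probe sets that did not behave alike. In the first pair the differences were 2.37 ± 0.10 and 2.28 ± 0.15, and in the third, the only plain one, the difference was -0.06 ± 0.09 (adjusted p = 0.64 over probe sets). The lines overlapped in that probe set, with -0.03, -0.19 and 0.05 in A_212 and -0.08, 0.06 and 0.03 in N_46. Why the probe sets disagree was not tested.

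Hspb2, a small heat shock protein of muscle, lies next to Cryab on chromosome 9, and the spans of the pair overlap in the RefSeq gene table of GRCm38.p6. It had values of 0.47, 0.88 and 0.40 in A_212 and -0.76, -0.43 and -0.40 in N_46, a difference of 1.11 ± 0.13 (adjusted p = 8.2e-05). All A_212 arrays were above all N_46 arrays, and its 1 probe set is also not of the plain type. Whether the probe sets of these overlapping genes share signal was not tested.

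The other 4 genes of the group had small differences. Hspb7, a small heat shock protein of heart muscle, had values of 0.02, 0.15 and 0.12 in A_212, against -0.09, -0.11 and -0.08 in N_46. The lines did not overlap, yet the difference of 0.19 ± 0.07 missed the threshold (adjusted p = 0.05003, and 0.043 without A_212 replicate 1). Hspb8, which works with BAG3 in the selective autophagy of misfolded proteins, differed by -0.14 ± 0.08 (95% interval -0.31 to 0.04), with overlapping lines. Hspb3 differed by 0.02 (interval -0.17 to 0.20). Hspb11 differed by -0.10, and despite its symbol it encodes a subunit of the intraflagellar transport complex of cilia.

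Many markers of contractile and mesenchymal cells moved in the same direction as Hspb1, Cryab and Hspb2, genes that muscle cells also express. The mean over the 13 smooth muscle markers was 0.40 to 0.53 in the A_212 arrays, against -0.74 to -0.45 in the N_46 arrays, with a median difference of 0.53. Actg2 (4.17 ± 0.15) and Cnn1 (2.65 ± 0.12) led it, while Myh11 and Des, which define mature muscle, differed by 0.04 ± 0.08 and -0.06 ± 0.08 and did not pass. Over the 16 fibroblast markers the mean was 0.60 to 0.76 in A_212 and -0.72 to -0.58 in N_46, with a median difference of 0.31, led by Mmp2 (5.26) and Postn (5.14), and with Col1a1 (-0.55) and Twist2 (-0.39) lower in A_212. The neuron markers Stmn2 (3.09), Eno2 (1.47) and Tubb3 (1.13) were also higher in A_212. Map2 (-0.25) and Gap43 (-0.24) were lower, 10 of the 15 neuron markers did not pass, and the median was -0.07. Of the 12 astrocyte markers, 5 were higher, led by Apoe (1.17) and Clu (1.02), and Slc1a3 (-2.47) and Gja1 (-1.30) were lower. The part of any of these markers in the small heat shock protein differences was not tested. In bulk RNA, fewer cells of a type and less RNA per cell cannot be told apart.

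**Figure D2:**
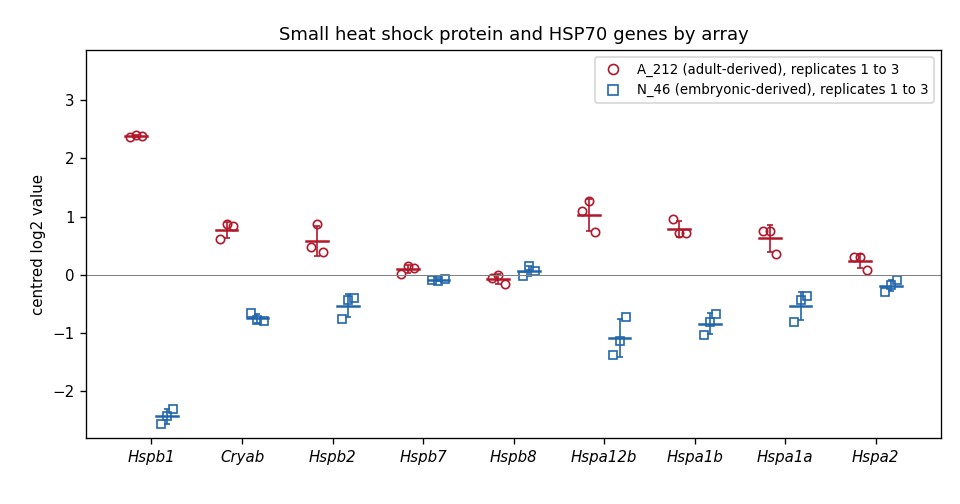
Centred log2 value of 5 small heat shock protein genes and 4 HSP70 genes in each array, A_212 left and N_46 right in each pair; points are replicates, horizontal bars the mean and vertical bars the SD (n = 3). Hspb1 lies above 2 in every A_212 array and below -2 in every N_46 array, and the lines overlap for Hspb8.

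Among the 10 cytosolic HSP70 and HSP110 genes, 4 were higher in A_212, 1 was lower and 5 did not pass. The stress-inducible HSP70 genes were among the 4. Hspa1b had values of 0.95, 0.71 and 0.71 in A_212, against -1.03, -0.81 and -0.67 in N_46, a difference of 1.63 ± 0.10 or 3.09-fold (adjusted p = 7.7e-07), and its 3 probe sets lay between 1.49 and 1.75. Hspa1a had 0.76, 0.76 and 0.36 in A_212 and -0.81, -0.44 and -0.36 in N_46, a difference of 1.17 ± 0.14 (adjusted p = 6.1e-05). These neighbours on chromosome 17 encode nearly the same protein, so their probe sets may share signal and the genes are not separate observations. The third gene of that cluster, Hspa1l, which is known from the testis, differed by -0.08 ± 0.11 (interval -0.33 to 0.16), with overlapping lines.

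The largest HSP70 difference was that of Hspa12b, a distant HSP70 relative known from endothelial cells. It had values of 1.10, 1.26 and 0.73 in A_212, against -1.37, -1.14 and -0.73 in N_46, a difference of 2.11 ± 0.17 or 4.33-fold (adjusted p = 3.4e-06, 1 probe set). Hspa2, an HSP70 best known from spermatocytes, had 0.31, 0.31 and 0.09 in A_212 and -0.29, -0.17 and -0.09 in N_46, a difference of 0.42 ± 0.09 (adjusted p = 0.0032). The lines were apart in every array for both genes.

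The constitutive HSP70 gene Hspa8 did not pass, with a gene mean of 0.03, -0.10 and -0.02 in A_212, against -0.01, 0.08 and 0.10 in N_46, and a difference of -0.08 ± 0.07 (interval -0.25 to 0.08). Of its 4 probe sets 3 differed by 0.01 to 0.02, and the fourth, the only plain one, by -0.39 ± 0.12 (adjusted p = 0.029 over probe sets). Hspa14, which acts at the ribosome, differed by 0.01 ± 0.07, and Hspa4, an HSP110-like exchange factor, by -0.10 ± 0.07.

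The HSP110 gene Hsph1, a nucleotide exchange factor of HSP70 that is itself heat-inducible, was lower in A_212. It had values of -0.02, -0.43 and -0.51 in A_212, against 0.02, 0.69 and 0.61 in N_46. The lines did not overlap, but replicate 1 of each line lay near 0 while the other arrays lay well apart. The difference was -0.76 ± 0.17 (adjusted p = 0.0054), and it was -1.12 ± 0.09 without replicate 1 of both lines, a setting chosen after the data were seen. Its relative Hspa4l had 0.14, -0.29 and -0.46 in A_212 and -0.03, 0.17 and 0.03 in N_46. The lines overlapped through A_212 replicate 1, and the difference of -0.26 ± 0.13 (adjusted p = 0.15) was -0.43 ± 0.10 without that array (adjusted p = 0.0057).

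Hsp90aa1, the inducible cytosolic HSP90, was the 1 cytosolic HSP90 gene measured. It had values of 0.04, -0.27 and -0.21 in A_212, against 0.12, 0.05 and -0.03 in N_46, with overlapping lines. The difference was -0.19 ± 0.09 (interval -0.40 to 0.01, adjusted p = 0.13), and -0.28 without A_212 replicate 1 (adjusted p = 0.026). Over the 10 cytosolic HSP70 and HSP110 genes A_212 replicate 1 lay at 0.142 from its line's mean and N_46 replicate 1 lay -0.156 from its own, beside -0.016 and -0.017 over all genes. Replicate 3 lay on the other side, at -0.154 in A_212 and 0.112 in N_46, and replicate 2 at 0.012 and 0.044.

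Stretches of RefSeq sequence before the gene starts (GRCm38.p6) are shown for Hspb1 and Hspa1b because these heat-inducible genes were higher in A_212, while other heat-inducible members (Hsph1, Dnajb1, Hspd1 and Hspe1) were lower and Hsp90aa1 did not pass. Capitals mark the letters GAANNTTC, a pair of inverted units of the heat shock element to which HSF1 binds. Hspb1 (chr5:135887669-135887918, plus strand) has 2 such matches and Hspa1b (chr17:34959239-34959488, minus strand) has 1, and 247 of the 250 bases before the start of Hspa1a are identical to those of Hspa1b.
Hspb1: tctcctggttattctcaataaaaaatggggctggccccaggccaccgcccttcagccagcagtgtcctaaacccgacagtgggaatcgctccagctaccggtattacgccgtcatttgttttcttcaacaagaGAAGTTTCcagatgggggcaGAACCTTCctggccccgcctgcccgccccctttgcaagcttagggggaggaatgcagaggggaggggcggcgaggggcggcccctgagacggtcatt
Hspa1b: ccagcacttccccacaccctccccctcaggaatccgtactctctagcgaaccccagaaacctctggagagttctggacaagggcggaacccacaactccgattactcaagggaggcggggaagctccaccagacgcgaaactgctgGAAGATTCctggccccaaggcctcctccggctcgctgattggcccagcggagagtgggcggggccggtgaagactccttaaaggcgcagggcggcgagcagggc

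Both strands of windows from 250 bases before to 50 after the start were searched, and 49 of the 61 genes had a window in the table. The letters GAANNTTC or TTCNNGAA were found for 14 of the 49 (28.6%), beside 17.0% of all 27025 genes with a window. Of these 14 genes 5 were higher in A_212, 4 were lower and 5 did not pass. Of all 49 members with a window, 10 were higher, 12 were lower and 27 did not pass. The longer form of 3 units, GAANNTTCNNGAA or TTCNNGAANNTTC, contains the shorter one and was found for 4 of the 49 (8.16%), beside 0.662% of all genes. The 4 were Hsph1, Hspd1, Hspe1 and Dnajb6, of which the first 3 were lower in A_212 and Dnajb6 did not pass. Hspd1 and Hspe1 hold the same bases, read on opposite strands, so in both counts they are not separate observations. In Hsph1 the longer form lies just after the start. The shorter letters stood near the starts of genes of both directions, and a match is a description, not a site.

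Among the 24 cytosolic and nuclear J proteins, 2 were higher in A_212, 8 were lower and 14 did not pass, and 18 of the 24 differences were negative. That is 41.7% called, beside 39.2% of all genes. Negative differences were also the majority over all genes, at 7563 of 12393. The largest by far was that of Dnajc12, a J protein that binds the aromatic amino acid hydroxylases of serotonin and dopamine synthesis. It had values of -0.73, -0.72 and -1.01 in A_212, against 0.72, 0.80 and 1.04 in N_46. The lines were widely separated, and the difference was -1.67 ± 0.11, that is 3.19-fold lower in A_212 (adjusted p = 7.1e-07, 1 probe set).

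The J proteins that drive cytosolic HSP70 in the heat shock response had smaller differences. Dnajb1, the main inducible J partner of HSP70, had values of -0.02, -0.08 and -0.13 in A_212, against 0.00, 0.28 and 0.30 in N_46. The lines did not overlap but came close in replicate 1, and the difference of -0.27 ± 0.09 (adjusted p = 0.039) lost its call in 5 of the 6 fits that leave out 1 array, with adjusted p-values up to 0.16. Dnaja1, another HSP70 partner, had -0.04, -0.12 and -0.18 in A_212 and 0.04, 0.29 and 0.24 in N_46, a difference of -0.30 ± 0.09 (adjusted p = 0.016), which was lost without N_46 replicate 2 (0.077) and without N_46 replicate 3 (0.066). In both genes, as in Hsph1, N_46 replicate 1 was the lowest array of its line. Dnaja4 differed by 0.14 ± 0.08 and Dnajb6, a J protein that suppresses polyglutamine aggregation, by -0.14 ± 0.09, neither past the threshold.

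The higher pair were Dnajb4 and Dnajc13. Dnajb4, a close relative of Dnajb1, had values of 0.24, 0.55 and 0.28 in A_212, against -0.24, -0.35 and -0.35 in N_46, a difference of 0.66 ± 0.09 (adjusted p = 2.2e-04), with probe sets at 0.59 and 0.74. Its direction was therefore opposite to that of Dnajb1. Dnajc13, an endosomal J protein that works with HSC70 in membrane traffic, had 0.37, 0.43 and 0.20 in A_212 and -0.20, -0.32 and -0.37 in N_46, a difference of 0.63 ± 0.08 (adjusted p = 1.8e-04).

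The other lower genes were Dnajc21, which acts in the maturation of the large ribosomal subunit (-0.48 ± 0.08, adjusted p = 7.1e-04), Dnajc2, a partner of HSP70 on the ribosome (-0.32 ± 0.07), Dnajb8 (-0.31), Dnajb5 (-0.27) and Dnajc8, which is associated with splicing (-0.19, adjusted p = 0.0462). The call of Dnajc8 was lost in each of the 6 fits without 1 array and that of Dnajb8 in 4 of them. The call of Dnajb5 was lost with plain probe sets alone, and its only plain probe set differed by -0.03. The lower call of Dnajc2 was lost with plain probe sets alone. Its mean covers 4 probe sets of both signs, of which only the positive ones are plain. The 4 differed by -0.91, -0.73, 0.05 and 0.31, with the first, second and last past the threshold over probe sets. Dnaja2 likewise had probe sets at -0.45 and 0.27, both past it, and a gene mean of -0.09 that did not pass. Among the rest Dnajc5, the cysteine string protein of synaptic vesicles, differed by 0.04 ± 0.07 (interval -0.11 to 0.20) over 5 probe sets. The other 10 genes that did not pass were Dnajb2, Dnajb3, Dnajb7, Dnajb13, Dnajc5b, Dnajc7, Dnajc9, Dnajc17, Dnajc24 and Dnajc27, between -0.26 for Dnajc5b (adjusted p = 0.062) and 0.05 for Dnajb2. The count of 8 lower genes was 4 without N_46 replicate 2 or 3, and 5 without A_212 replicate 1 or 2.

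**Figure D3:**
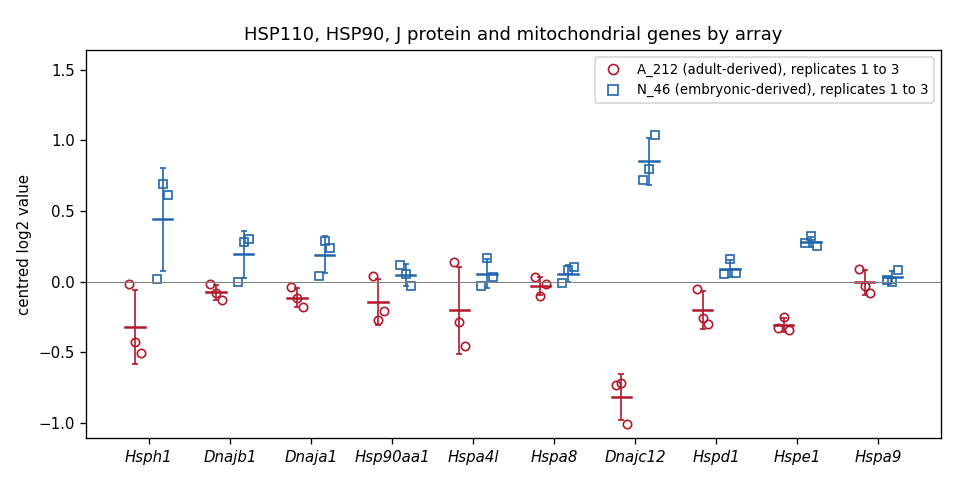
Centred log2 value of 10 HSP110, HSP90, HSP70, J protein and mitochondrial genes in each array, A_212 left and N_46 right in each pair; points are replicates 1 to 3 from left to right, horizontal bars the mean and vertical bars the SD (n = 3). Replicate 1 of each line lies near 0 for Hsph1, whereas all 3 replicates of each line stand apart for Dnajc12 and Hspe1.

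In the ER group of 10 genes, 4 were higher in A_212, 2 were lower and 4 did not pass. The share called was 60.0%, beside 39.2% of all genes (18.3% higher and 20.9% lower). The main ER chaperones were among those that did not pass. Hspa5, the ER HSP70 known as BiP, had values of 0.16, 0.01 and -0.03 in A_212, against -0.17, 0.06 and -0.01 in N_46, with a difference of 0.09 ± 0.09 (interval -0.10 to 0.28), which was -0.03 without replicate 1 of both lines. Hsp90b1, the ER HSP90 known as GRP94, had 0.15, 0.03 and 0.00 in A_212 and -0.04, 0.03 and -0.06 in N_46, with a difference of 0.08 ± 0.07 (interval -0.08 to 0.24). The lines overlapped for both.

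The 4 higher genes all encode ER J proteins, and none reached 0.5 on the log2 scale. Dnajc3, known as p58IPK, a BiP partner that also inhibits the kinase PERK, had values of 0.26, 0.27 and 0.12 in A_212, against -0.18, -0.16 and -0.25 in N_46. Its difference was 0.42 ± 0.07 (adjusted p = 0.0011), and all 5 of its probe sets were past the threshold, between 0.27 and 0.62. Dnajc10 (ERdj5), a reductase that prepares misfolded proteins for degradation, differed by 0.32 ± 0.08 (adjusted p = 0.0074) with 3 probe sets between 0.30 and 0.34. Dnajc18 differed by 0.43 ± 0.07 (adjusted p = 6.9e-04). Dnajb9 (ERdj4), which restrains the stress sensor IRE1 through BiP, had 0.02, 0.22 and 0.11 in A_212 and -0.02, -0.37 and -0.40 in N_46, a difference of 0.38 ± 0.11 (adjusted p = 0.015) that was lost without A_212 replicate 2 (0.062), N_46 replicate 2 (0.059) or N_46 replicate 3 (0.063).

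Of the ER J proteins that were lower, Dnajb12, a membrane protein of ER-associated degradation, differed by -0.28 ± 0.09 (adjusted p = 0.025) and Dnajc14 by -0.22 ± 0.07 (adjusted p = 0.036). Without A_212 replicate 3, N_46 replicate 2 or N_46 replicate 3 both calls were lost and the count of lower ER genes was 0. The call of Dnajc14 was also lost without A_212 replicate 1 and without N_46 replicate 1, under all 3 rescalings of the arrays and with plain probe sets alone. With plain probe sets alone the call of Dnajb12 was lost too. Dnajb11 (ERdj3), a secreted BiP partner, differed by -0.13 ± 0.08 and Dnajc1, whose 3 probe sets ran from -0.06 to 0.35, by 0.08 ± 0.08.

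The stretches before the starts of Hspa5 and Dnajc3 are printed because both hold the ER stress element while only Dnajc3 was past the threshold. Capitals mark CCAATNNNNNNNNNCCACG, which was searched on both strands and found for 3 of the 49 genes (6.12%), namely Hspa5, Hsp90b1 and Dnajc3, beside 0.137% of all genes. Hspa5 is at chr2:34771840-34772089, plus strand, and Dnajc3 at chr14:118937682-118937931, plus strand.
Hspa5: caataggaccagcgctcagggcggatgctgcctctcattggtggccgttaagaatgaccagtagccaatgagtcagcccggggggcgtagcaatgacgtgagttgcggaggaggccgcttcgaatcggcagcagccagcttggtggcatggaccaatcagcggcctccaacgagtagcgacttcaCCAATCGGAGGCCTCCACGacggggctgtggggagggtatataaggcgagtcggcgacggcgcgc
Dnajc3: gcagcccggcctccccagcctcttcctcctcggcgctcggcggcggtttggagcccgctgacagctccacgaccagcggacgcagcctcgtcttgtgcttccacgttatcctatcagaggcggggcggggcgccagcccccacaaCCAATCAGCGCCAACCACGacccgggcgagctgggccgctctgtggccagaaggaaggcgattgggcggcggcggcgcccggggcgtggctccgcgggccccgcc

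In the mitochondrial group of 9 genes, 5 were lower in A_212, 0 were higher and 4 did not pass. The share called was 55.6%, beside 39.2% of all genes (18.3% higher and 20.9% lower). The median difference was -0.26, beside -0.06 over all genes. Hspe1, the HSP10 lid of the mitochondrial chaperonin, had values of -0.33, -0.25 and -0.34 in A_212, against 0.27, 0.32 and 0.25 in N_46. The arrays of each line lay close together, and the difference was -0.59 ± 0.07 (adjusted p = 6.4e-05), with probe sets at -0.70 and -0.48. Hspd1, the HSP60 subunit that forms the barrel, had -0.05, -0.26 and -0.30 in A_212 and 0.05, 0.16 and 0.06 in N_46, a difference of -0.30 ± 0.08 (adjusted p = 0.017). The call of Hspd1 was lost in 3 of the 6 fits without 1 array: without A_212 replicate 2 (0.059), A_212 replicate 3 (0.05001) or N_46 replicate 2 (0.073).

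Hspd1 and Hspe1 are neighbours on chromosome 1 whose spans overlap in the RefSeq table. The same bases between their starts hold overlapping matches of the 3-unit heat shock element, at -89 and -84 from the Hspe1 start. Capitals mark the bases that these matches cover together, read on the strand of Hspe1 (chr1:55088053-55088082, plus strand). The stretch is shown because the pair was lower in A_212 while Hspa1a and Hspa1b were higher.
Hspe1: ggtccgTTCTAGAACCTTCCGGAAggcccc

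The mitochondrial J proteins Dnajc11, a protein of the contact sites of cristae (-0.47 ± 0.07, adjusted p = 3.0e-04), and Dnaja3, known as Tid1, the J partner of mitochondrial HSP70 (-0.42 ± 0.08, adjusted p = 0.0016), were lower in A_212 in every array. The call of Dnaja3 was lost with plain probe sets alone. Its only plain probe set differed by -0.14 ± 0.11 (adjusted p = 0.36 over probe sets), with overlapping lines. Dnajc30 differed by -0.26 ± 0.08 (adjusted p = 0.029) and lost its call in 4 of the 6 fits without 1 array. Hspa9 itself, the mitochondrial HSP70 known as mortalin, had values of 0.09, -0.03 and -0.08 in A_212, against 0.01, 0.00 and 0.08 in N_46, with a difference of -0.04 ± 0.07 (interval -0.21 to 0.12). Dnajc15, a J protein of the import motor, differed by 0.08 ± 0.09, Dnajc4 by -0.11 ± 0.10 and Dnajc28 by 0.09 ± 0.07, all with overlapping lines. The count of 5 lower genes was 3 without A_212 replicate 3 and without N_46 replicate 2.

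Several probe sets per gene were available for 37 of the 61 genes, and in 11 of these genes the probe sets had both signs. Cryab and Dnajc2 were called, and Hspa8, Hspa9, Hspa14, Dnaja2, Dnaja4, Dnajc1, Dnajc5, Dnajc17 and Dnajc24 were not. Taken one by one over 20380 probe sets, 53 of the 124 (42.7%) were past the threshold, 30 higher and 23 lower in A_212, beside 37.4% of all probe sets. All probe sets were past the threshold in the same direction for 9 of the 37 genes: Hspb1, Hspa1b, Hsph1, Dnajb4, Dnajc3, Dnajc10, Dnajc18, Dnajc11 and Hspe1.

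**Figure D4:**
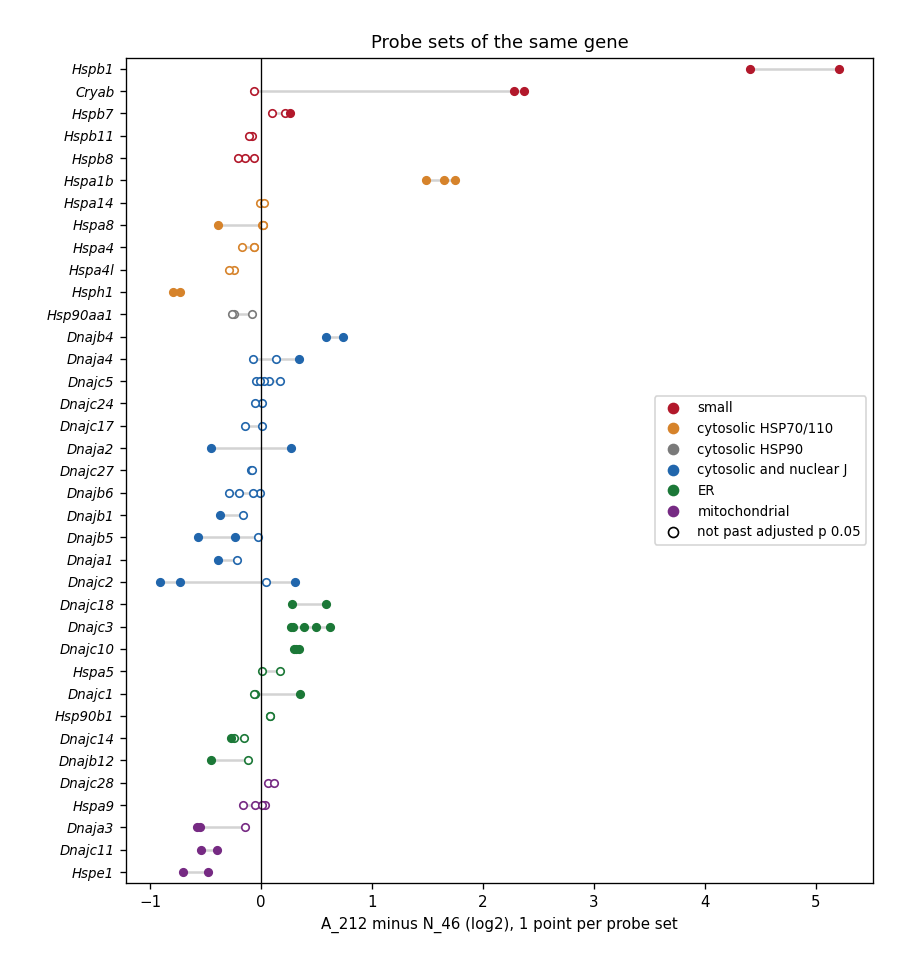
Difference between the lines (A_212 minus N_46, log2) in each probe set of the 37 genes with several, coloured by compartment; filled points passed an adjusted p of 0.05 over all probe sets and grey lines join probe sets of a gene. The probe sets of Hspb1 lie at 4.41 and 5.21, and those of Cryab, Dnaja2 and Dnajc2 stand on both sides of 0.

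Other chaperone genes were set beside these. Of 25 measured HSP90 and HSP70 co-chaperones without a J domain, 3 were higher in A_212 and 8 lower, with a median of -0.04. The HSP70-HSP90 adaptor gene Stip1 had values of -0.19, -0.28 and -0.32 in A_212, against 0.19, 0.30 and 0.25 in N_46 (difference -0.51 ± 0.07), and the glucocorticoid-induced HSP90 partner Fkbp5 had 0.35, 0.25 and 0.30 in A_212, against -0.50, -0.24 and -0.31 in N_46 (0.65 ± 0.08). Of the HSP70 exchange factors of the BAG family, Bag2 was higher in A_212 (0.37) and Bag5 lower (-0.43). Of 9 other heat-inducible genes 4 were lower in A_212 (Stip1, Ahsa1, Fkbp4 and Cacybp), 0 were higher and 5 did not pass. Bag3, the partner of Hspb8, was among those 5 at -0.13 ± 0.10. So was Hmox1 at 0.52 ± 0.34, with 0.10, 0.09 and -0.09 in A_212. In N_46 it had 0.56, -0.95 and -1.07, so replicate 1 stood far from the other N_46 arrays. Of these 9 genes some also belong to the co-chaperone list. Hsf4, a heat shock factor of the lens, was higher in A_212 (0.23 ± 0.07), and Hsf2 differed by -0.28 ± 0.12 (adjusted p = 0.089).

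Of 13 genes of the cytosolic chaperonin TRiC and of prefoldin, which fold actin and tubulin, 1 was higher in A_212 (Pfdn1, 0.62), 4 were lower, among them Pfdn2 (-0.48) and Cct6a (-0.34), and 8 did not pass. Of 31 further genes of ER folding and the unfolded protein response, 7 were higher, led by the BiP exchange factor Sil1 (0.75 ± 0.09) and the disulfide isomerase P4hb (0.44), 6 were lower, led by Pdia5, another isomerase (-0.87 ± 0.08), and Herpud1, of ER-associated degradation (-0.46), and 18 did not pass. Of 15 further mitochondrial folding and protease genes, 3 were higher and 8 were lower in A_212, with a median of -0.25. Grpel1, the exchange factor of mitochondrial HSP70, differed by -0.52 ± 0.09, and Htra2, a protease of the intermembrane space, by -0.92 ± 0.08, while the subunits of the matrix protease, Clpx (0.31) and Clpp (0.24), were higher in A_212. Beside 39.2% of all genes, the share called was 73.3% in the mitochondrial list and 41.9% in the ER list. It was 38.5% for TRiC and prefoldin, 44.0% for the co-chaperones and 44.4% for the other heat-inducible genes. Among the marker lists it was 76.9% for smooth muscle, 62.5% for fibroblast, 58.3% for astrocyte and 33.3% for neuron markers.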

How the data were processed

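Total RNA of 6 plates was labelled with biotin from 5 µg and hybridised to an Affymetrix mouse array, per the labels' protocols. The deposited log2 values come from RMA, per the submitters' processing notes (version not given in the sources used here), and were centred per probe set by the authors at an unstated step: the median over the 6 arrays is 0 within 1e-05. The design had allowed for centring and took the mean of a gene's probe sets. Probe sets named for several genes (691) or none (1555) and controls (64) were left out. All 61 symbols were found in the RefSeq gene table of GRCm38.p6, which also gave neighbours. Lines were compared with limma (lmFit, eBayes, two-sided, Benjamini-Hochberg over 12393 genes). The fit was tested on simulated data. Members, lists and tests were chosen with earlier results of these data known. Genes named were those past the threshold with a difference of at least 0.5, key chaperones whatever their result, and up to 2 each way per list. Compartments were assigned by hand. Same-numbered plates did not deviate together (correlations -0.0272, -0.0122 and 0.0932), so numbers were not taken as pairs. Fits ran in R 4.3.3 with limma 3.58.1, tables in Python 3.11.15 (pandas 2.3.3, numpy 2.4.6) and figures in matplotlib 3.10.9.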

Additional observations from a re-analysis of the deposited data

How the results depend on the processing

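Alternatives were plain probe sets alone, probe sets one by one, arrays rescaled to one median, to one 75th percentile or by quantiles, array weights, a replicate block, robust eBayes, each array left out and, added after the data were seen, replicate 1 of both lines left out. Of 22 named genes, 14 kept their call and direction in every gene-level alternative. Hspa5, not past the threshold in any, was at -0.03 without replicate 1 of both lines, against 0.09. With plain probe sets alone, Cryab was at -0.06, its single plain probe set, and the counts were 10 lower members, 5 lower cytosolic J proteins, 0 lower ER genes and 0 higher small heat shock proteins, since Hspb1 and Hspb2 have no plain probe set. Probe sets one by one gave -0.06 for that of Cryab, values of the opposite sign that did not pass for Hspa8 (0.01 to 0.02) and Hspa9 (0.01 and 0.04), 2 lower HSP70 and HSP110 genes and 5 higher cytosolic J proteins. Lower ER genes numbered 1 under each of those 3 rescalings and without replicate 1 of both lines, where lower HSP70 and HSP110 genes numbered 2. Higher small heat shock proteins numbered 4 under each of the 3 rescalings, with array weights, without A_212 replicate 1 and with probe sets one by one. Leaving out 1 array gave 8 to 15 lower members, 1 to 2 lower HSP70 and HSP110, 4 to 8 lower J protein, 0 to 2 lower ER and 3 to 5 lower mitochondrial genes, and 12 to 14 higher members. Over all genes those fits gave 1986 to 2858 lower and 1891 to 2266 higher calls. Of the 29 called members, 20 kept the call in all 6 such fits, 12 of 13 higher and 8 of 16 lower. The replicate block left 29 members called, 28 of them shared, and 4834 of all genes, against 4853. Array weights called 5757. Over the scalings, the median of all genes moved between -0.0597 and -0.027. The causes of these changes were not tested beyond what the settings themselves show.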

Other observations

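A pair of probe sets named for both Dnajc19, a J protein of the mitochondrial import motor, and its pseudogene was kept out of the comparison because each is named for 2 genes. The first had centred log2 values of -0.18, 0.06 and -0.30 in A_212, against -0.06, 0.07 and 0.10 in N_46. The second had -0.03, -0.05 and 0.15 in A_212, against 0.03, -0.03 and 0.20 in N_46. The lines overlapped in both, with differences of -0.18 and -0.04, and no test was run on them.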
